A study of Mus musculus with 5 samples.

Results

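The 10 genes described here are known markers of tissue-resident macrophages: Vsig4, Marco, Timd4, Lyve1, Folr2, Cd163, Cd209f, Mrc1, F13a1 and Clec10a. They were taken by name from the 32285 genes in the files, and 9 encode receptors, while F13a1 encodes an enzyme. Their transcripts were counted in 5589 macrophage nuclei among the 66249 nuclei kept from single-nucleus RNA sequencing of mouse white fat. The question was how each gene is spread over 5 fat depots, and how macrophages with Vsig4 or Marco differ from macrophages with Cd209f or Mrc1.

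The depots were peri-heart fat (HWAT, pooled from 20 mice), subcutaneous fat (SWAT, 6 mice), epididymal fat (EWAT, 6 mice), mesenteric fat (MWAT, 10 mice) and perirenal fat (NWAT, 6 mice). All were wild-type males aged 10 weeks and fed chow. C57BL/6J is the strain in the protocol of every depot, but the strain field differs, with C57BL/9J on HWAT, C57BL/6J on SWAT and EWAT, C57BL/7J on MWAT and C57BL/8J on NWAT. Vessels were flushed with heparin in saline before dissection, and lymph nodes were taken out of SWAT and MWAT. Each depot was 1 library from pooled mice, so values of single mice cannot be seen and no difference between depots can be tested.

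Resident macrophages take up debris, pathogens and dying cells through surface receptors, and the set of receptors differs between niches. Macrophages along blood vessels of fat and other organs are known for the mannose receptor, CD163 and C-type lectins, while macrophages of the serous cavities and of liver are known for the complement receptor encoded by Vsig4, the scavenger receptor encoded by Marco, or the phosphatidylserine receptor encoded by Timd4. Peri-heart and visceral fat lie next to serous cavities, whose macrophages depend on the transcription factor GATA6.

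The promoters of the genes that set up the contrast, and of Timd4, are printed for reference. They are bases before the annotated start, read from RefSeq (GRCm38.p6) on the strand of the gene, 5′ to 3′, with bases inside the gene's GENCODE span cut away. Of the 10 genes, 8 had an entry. Both strands were searched for AGATAA (the GATA core), TGCTGA (a MAF half-site), GAGGAAGT (PU.1), AGGAAG (the ETS core, held within the PU.1 letters) and TGANTCA (AP-1), and capitals mark each match.
Vsig4, chrX:96293439-96293688, minus strand: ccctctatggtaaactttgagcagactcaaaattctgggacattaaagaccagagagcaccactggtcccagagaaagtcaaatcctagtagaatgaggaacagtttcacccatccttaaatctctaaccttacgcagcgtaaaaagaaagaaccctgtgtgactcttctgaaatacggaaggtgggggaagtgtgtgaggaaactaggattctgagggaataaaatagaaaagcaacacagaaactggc
Marco, chr1:120505025-120505274, minus strand: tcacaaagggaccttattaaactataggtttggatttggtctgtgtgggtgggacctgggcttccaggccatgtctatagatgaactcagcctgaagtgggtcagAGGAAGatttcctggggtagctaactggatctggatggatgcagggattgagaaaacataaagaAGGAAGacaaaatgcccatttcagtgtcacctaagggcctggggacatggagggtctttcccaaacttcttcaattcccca
Timd4, chr11:46810549-46810798, plus strand: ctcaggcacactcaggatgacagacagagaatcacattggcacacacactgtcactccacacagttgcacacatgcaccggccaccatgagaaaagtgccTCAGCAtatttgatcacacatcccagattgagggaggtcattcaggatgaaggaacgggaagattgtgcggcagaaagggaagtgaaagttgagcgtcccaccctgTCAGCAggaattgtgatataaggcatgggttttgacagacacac
Cd209f, chr8:4105836-4106014, minus strand: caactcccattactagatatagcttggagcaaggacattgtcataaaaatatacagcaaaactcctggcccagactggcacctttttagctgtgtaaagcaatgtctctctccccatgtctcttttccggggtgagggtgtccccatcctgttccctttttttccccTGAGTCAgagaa
Mrc1, chr2:14229164-14229391, plus strand: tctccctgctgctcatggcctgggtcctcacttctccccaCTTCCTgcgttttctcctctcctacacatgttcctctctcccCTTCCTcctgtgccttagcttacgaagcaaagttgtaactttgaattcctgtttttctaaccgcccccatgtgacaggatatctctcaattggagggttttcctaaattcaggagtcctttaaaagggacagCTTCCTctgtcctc

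Marco held 2 ETS cores, Mrc1 held 3 ETS cores, Timd4 held 2 MAF half-sites, and Cd209f held 1 AP-1 match that reads the same motif on both strands. Vsig4 had no match to these letters in its window. Among 32851 promoters of 250 bases, the ETS core was present in 29.5%, the MAF half-site in 16.1%, the GATA core in 9.99%, AP-1 in 6.75% and the PU.1 letters in 2.44%. The Cd209f and Mrc1 windows are shorter, at 179 and 228 bases. A match describes letters in the sequence and is not evidence of binding.

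The libraries held 23313545 to 43855063 UMIs (unique molecular identifiers, each counted as 1 captured transcript). Macrophage nuclei were taken from 3 of 44 clusters, which were made and named without the 10 genes, and all 11 macrophage marker genes were raised in each of the 3. They numbered 1200 in HWAT (10.6% of its nuclei), 1092 in SWAT (9.84%), 1628 in EWAT (10.3%), 536 in MWAT (3.22%) and 1133 in NWAT (9.88%). Their median depth was 1658.5, 1496, 1749, 1025 and 2056 UMIs per nucleus in the same order. Barcodes shared by pairs of libraries numbered 40 to 87, and 1 macrophage barcode occurred in more than 1 library. Transcripts of other cell types moved with depot within these nuclei. The 6 plasma cell markers were all detected in HWAT and summed to 4222 CPM (the UMIs of a gene scaled to all UMIs of the nuclei summed), while the other 4 depots lay between 31.2 and 145.6 CPM with 5 or 6 of the 6 detected. The 5 smooth muscle markers summed to 453.2 CPM in MWAT, against 9.53 to 22.6 CPM elsewhere, and the 5 skeletal muscle markers to 241.7 CPM in NWAT and 98.0 CPM in HWAT, against 6.18 to 8.27 CPM in the other 3. Their part in the results was not tested. The folds of HWAT over the other depots, the HWAT share, co-detection and gene pairs, and the contrasts between types are also given without the sub-clusters led by genes of another immune class, a trimmed set chosen after seeing the data.

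Vsig4 and Marco were far higher in HWAT macrophages than in those of any other depot. Vsig4 (X:96247203-96293438, minus strand, GRCm38) encodes a complement receptor of the immunoglobulin family that captures C3-coated particles from the circulation. Its level was 715 CPM (680.0–751) in HWAT, 19.1 (13.3–26.6) in SWAT, 15.8 (11.7–20.7) in EWAT, 87.7 (65.7–115) in MWAT and 76.4 (66.0–87.9) in NWAT. HWAT stood 8.15-fold above MWAT (6.20–10.9), the next depot, and 45.4-fold above EWAT (34.3–61.2). MWAT and NWAT did not differ beyond counting error, nor did SWAT and EWAT. Intervals are at 95% and hold the error of counting UMIs or nuclei, without that between mice or dissections.

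Marco (1:120474538-120505024, minus strand) encodes a scavenger receptor with a collagen-like stalk that binds bacteria and particles. It gave 1745 UMIs in HWAT macrophages, or 792 CPM (755–830), against 61.2 CPM (43.1–84.4) in MWAT and 65.8 CPM (56.2–76.5) in NWAT. In EWAT there were 5 UMIs, or 1.55 CPM (0.502–3.61). In SWAT there was none among 1828476 UMIs, which allows up to 1.64 CPM (3 counts). HWAT was 12.0-fold above NWAT (10.3–14.2), 512-fold above EWAT (219–1580) and at least 482-fold above SWAT, and NWAT and MWAT did not differ beyond counting error.

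Free RNA in droplets gives some UMIs to nuclei that do not express a gene, so shares of nuclei are read against other cell types of the same library. Among HWAT macrophages, 42.0% (39.2–44.9) had a Vsig4 UMI and 32.9% (30.3–35.7) a Marco UMI. In HWAT B cell-like nuclei, at a median of 1209 UMIs, the shares were 4.85% for Vsig4 and 4.61% for Marco. In SWAT, EWAT, MWAT and NWAT, 2.75%, 2.40%, 4.85% and 5.03% of macrophages had a Vsig4 UMI, against 0.114%, 0.225%, 0.193% and 0.484% of the adipocyte-like nuclei, whose median depth was 1424.5 to 3215.5 UMIs. For Marco the shares were 2.61% of macrophages against 0.121% of adipocyte-like nuclei in MWAT, and 2.82% against 0.258% in NWAT. In EWAT 0.184% of macrophages (3 nuclei) had a Marco UMI, and in SWAT 0 of 1092. At 3 counts this allows a share of up to 0.275% of nuclei with a UMI, and sets no limit on nuclei that express the gene.

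Timd4 and Lyve1 were also highest in HWAT, with smaller gaps. Timd4 (11:46810800-46844332, plus strand) encodes a phosphatidylserine receptor that binds apoptotic cells and marks long-lived resident macrophages. It measured 714 CPM (679–750.1) in HWAT, 98.4 (84.6–114) in SWAT, 56.6 (48.7–65.4) in EWAT, 192 (159–230.1) in MWAT and 166 (151–183) in NWAT. HWAT was 3.72-fold above MWAT (3.08–4.53) and 12.6-fold above EWAT (10.8–14.8), and only MWAT and NWAT, as neighbours in this order, did not differ beyond counting error. Timd4 UMIs were found in 49.9% of HWAT macrophages, and in 3.62% of HWAT B cell-like nuclei.

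Lyve1 (7:110850607-110863239, minus strand) encodes a hyaluronan receptor of lymphatic endothelium and of some vessel-associated macrophages. Its level was 1025 CPM (983–1068) in HWAT, 224 (203–246) in SWAT, 232 (216–249) in EWAT, 366 (319–417) in MWAT and 519 (491–548) in NWAT. HWAT exceeded NWAT 1.98-fold (1.84–2.12), and EWAT and SWAT did not differ beyond counting error. Lymphatic endothelial-like nuclei also held Lyve1, at 1269 CPM in MWAT and 571 CPM in EWAT, while Vsig4 and Marco had 1 UMI each there in MWAT and none in EWAT.

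Mrc1, F13a1 and Clec10a ran the other way, lowest in HWAT. Mrc1 (2:14229392-14332057, plus strand) encodes the mannose receptor CD206, which clears glycoproteins. It measured 459 CPM (432–489) in HWAT, 1311 (1260–1365) in SWAT, 1208 (1171–1247) in EWAT, 1242 (1155–1334) in MWAT and 1476 (1429–1524) in NWAT. NWAT stood 1.13-fold above SWAT (1.07–1.19), while SWAT and MWAT, and MWAT and EWAT, did not differ beyond counting error. Even so, 40.5% of HWAT macrophages had an Mrc1 UMI, against 1.83% of HWAT B cell-like nuclei.

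F13a1 (13:36867178-37050244, minus strand) encodes the A subunit of coagulation factor XIII, a transglutaminase. Its level was 1274 CPM (1227–1322) in HWAT, 2872 (2795–2951) in SWAT, 2573 (2518–2628) in EWAT, 2905 (2770.5–3044) in MWAT and 3806 (3731–3883) in NWAT. Clec10a (11:70156197-70170834, plus strand) encodes a galactose-binding lectin, and stood at 191 CPM (173–210.1) in HWAT, 759 (719.7–800.1) in SWAT, 444 (422–468) in EWAT, 352 (307–403) in MWAT and 849.6 (814–886) in NWAT. Every neighbouring pair of depots differed beyond counting error for Clec10a, and for F13a1 every pair but MWAT and SWAT did.

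Cd209f, Cd163 and Folr2 did not set HWAT apart. Cd209f (8:4102787-4105835, minus strand) encodes a C-type lectin of the DC-SIGN family, which binds microbial sugars. It was highest in NWAT at 1776 CPM (1725–1829), against 778 (742–816) in HWAT, 1299 (1247–1352) in SWAT, 732 (703–762) in EWAT and 410.2 (361–465) in MWAT. HWAT and EWAT did not differ beyond counting error, so the gene that stands for one side of the contrast was about as abundant in HWAT as in EWAT. Its genomic neighbours Cd209b, Cd209d and Cd209g are close paralogs, and reads that fit more than 1 of them could be split or lost in counting.

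Folr2 (7:101839988-101857194, minus strand) encodes folate receptor beta and was likewise highest in NWAT, at 1240.2 CPM (1197–1284), against 778 (742–816) in HWAT, 670.0 (633–709) in SWAT, 492 (468–517) in EWAT and 443 (392–499.7) in MWAT. Cd163 (6:124304656-124330527, plus strand) encodes the scavenger receptor for haemoglobin bound to haptoglobin. Its range was the narrowest of the 10, from 669 CPM (637–702) in NWAT to 351 CPM (331–372) in EWAT, with 459 CPM (431–488) in HWAT, and NWAT was 1.91-fold above EWAT (1.77–2.06). NWAT and SWAT did not differ beyond counting error for Cd163, nor did MWAT and HWAT.

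**Figure D1:**
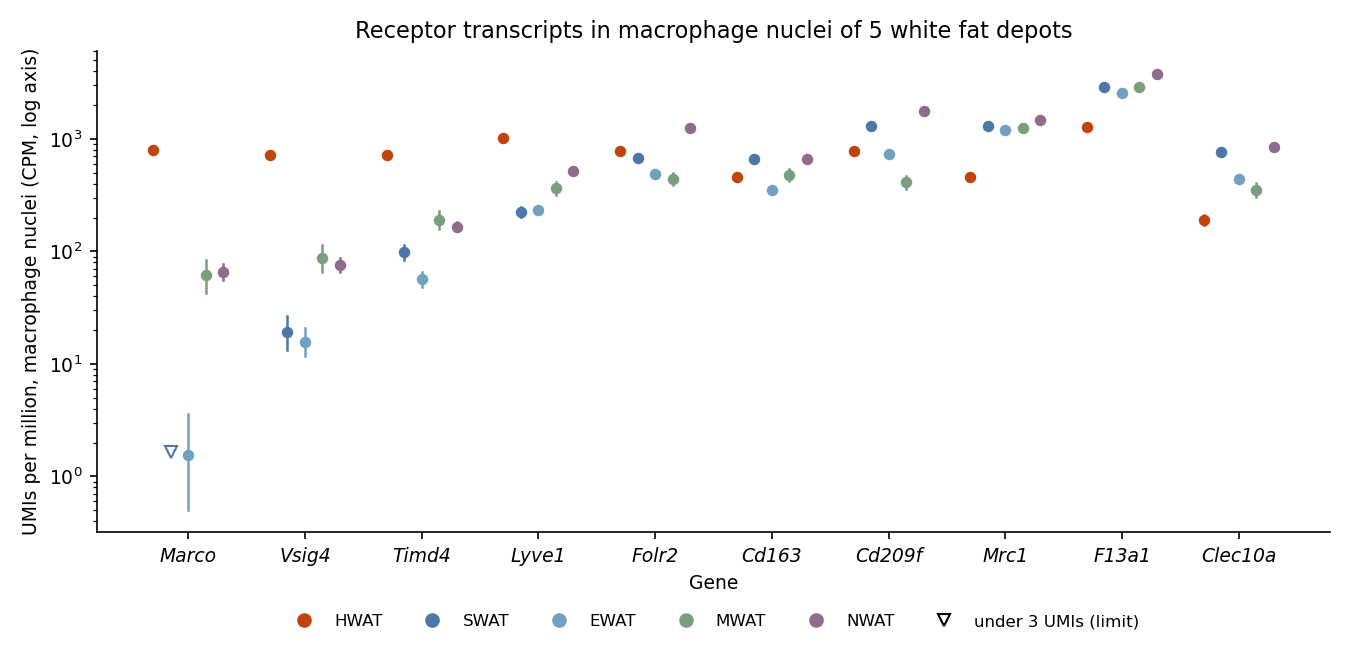
Level of each of the 10 genes in macrophage nuclei of the 5 depots, in CPM (log axis), with 95% Poisson intervals of counting error. Points are 1 pooled library each, and the open triangle marks the upper limit for Marco in SWAT (1.64 CPM). HWAT is the highest point for Marco, Vsig4, Timd4 and Lyve1 and the lowest for Mrc1, F13a1 and Clec10a.

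Set against the mean of the other 4 depots, HWAT macrophages had 24.6-fold more Marco, 14.4-fold more Vsig4, 5.57-fold more Timd4 and 3.06-fold more Lyve1. Thus 4 of the 10 genes were at least 2-fold higher, where 5.96% of the 13380 genes measured were. The HWAT value was 0.318 of that mean for Clec10a, 0.351 for Mrc1 and 0.419 for F13a1, which makes 3 of 10 at least 2-fold lower, where 15.5% of genes were. Cd209f (0.738), Cd163 (0.850) and Folr2 (1.09) lay within 2-fold. In NWAT, Cd209f (2.21-fold) and Folr2 (2.08-fold) were at least 2-fold higher than the mean of the others, where 1.83% of genes were, and Vsig4 (0.365) and Marco (0.308) at least 2-fold lower, where 8.41% were. No member was 2-fold higher in SWAT, EWAT or MWAT, where 3.53%, 3.55% and 6.24% of genes were. Vsig4, Marco, Timd4 and Lyve1 were at least 2-fold lower in SWAT and in EWAT, where 5.92% and 5.02% of genes were, and Vsig4, Marco and Cd209f in MWAT, where 3.61% were. These low values share the HWAT library in their mean. In the trimmed set, without the sub-clusters led by plasma cell, dendritic or neutrophil genes, the HWAT folds were 29.8 for Marco, 17.4 for Vsig4, 6.74 for Timd4, 3.44 for Lyve1, 0.181 for Clec10a, 0.294 for Mrc1 and 0.332 for F13a1.

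Counting nuclei rather than transcripts, 625 of 1200 HWAT macrophages (52.1%, 49.2–54.9) had at least 1 UMI of Vsig4 or Marco. In SWAT 2.75% did (1.86–3.90), and the figure was 2.58% (1.87–3.47) in EWAT, 6.34% (4.43–8.75) in MWAT and 6.80% (5.40–8.42) in NWAT. After each nucleus was thinned to 1000 UMIs, leaving out 212, 226, 230, 244 and 89 shallower nuclei, the shares became 45.2% in HWAT, 1.62% in SWAT, 2.15% in EWAT, 7.19% in MWAT and 4.60% in NWAT. The HWAT share was 69.3% in the trimmed set. HWAT therefore held the Vsig4 or Marco nuclei as a majority or near-majority of its macrophages, and in the other depots they were under 1 in 10.

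The 2 kinds of receptor were not on separate nuclei. In HWAT, 405 of the 625 nuclei with Vsig4 or Marco also had a Cd209f or Mrc1 UMI (64.8%, 60.9–68.5), a larger share than the 41.2% (37.2–45.4) among HWAT macrophages without Vsig4 or Marco. At 1000 UMIs per nucleus the shares were 53.5% (48.7–58.2) and 39.0% (34.9–43.3), and in the trimmed set the first was 65.2%. In HWAT B cell-like nuclei 4.25% had a Cd209f UMI and 1.83% an Mrc1 UMI. HWAT thus split into 220 nuclei with Vsig4 or Marco only, 405 with both kinds, 237 with Cd209f or Mrc1 only and 338 with neither, at medians of 1588.5, 1882, 1503 and 1452.5 UMIs.

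Co-detection elsewhere rested on few nuclei. In SWAT 27 of 30 nuclei with Vsig4 or Marco had Cd209f or Mrc1 as well (90.0%, 73.5–97.9), and in EWAT 40 of 42 (95.2%, 83.8–99.4), against 74.3% (71.6–76.9) and 71.4% (69.1–73.7) of the macrophages without Vsig4 or Marco. In MWAT the figures were 24 of 34 (70.6%, 52.5–84.9) against 62.0%. The intervals overlapped in SWAT and MWAT and were apart in EWAT. NWAT had the opposite order, with 54 of 77 (70.1%, 58.6–80.0) against 83.3% (80.9–85.5). Nuclei with Vsig4 or Marco and neither Cd209f nor Mrc1 numbered 3 in SWAT, 2 in EWAT, 10 in MWAT and 23 in NWAT.

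**Figure D2:**
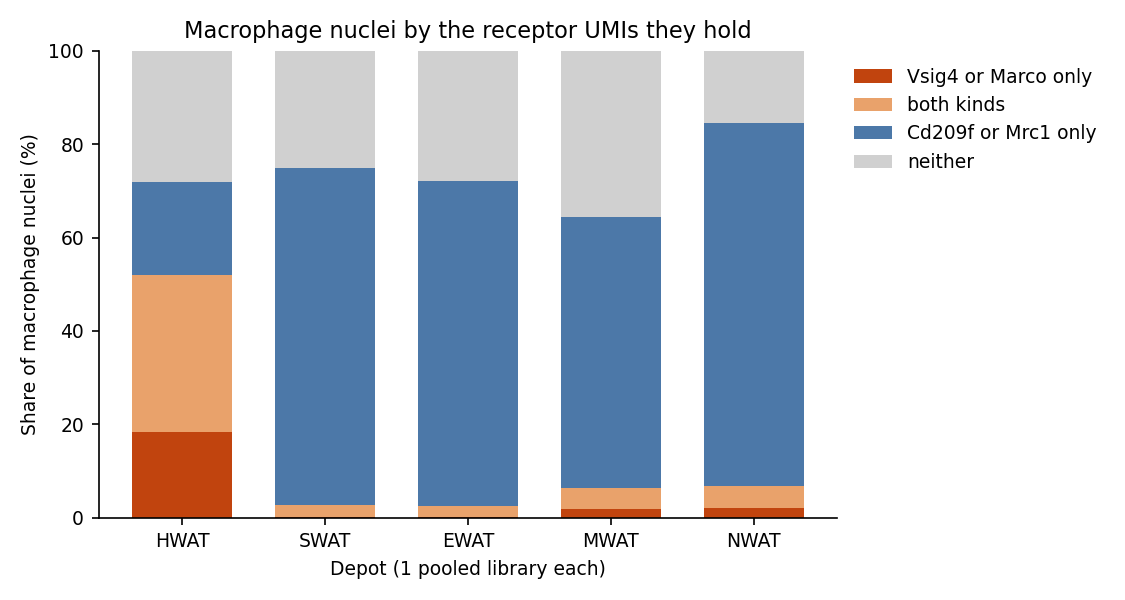
Share of macrophage nuclei (%) in each depot that held UMIs of Vsig4 or Marco only, of both kinds, of Cd209f or Mrc1 only, or of neither. Each bar is 1 pooled library and adds to all its macrophage nuclei. Vsig4 or Marco nuclei fill 52.1% of the HWAT bar and 2.58% to 6.80% of the others, and most of them carry both kinds.

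Of the 45 pairs of genes in HWAT macrophages, 38 shared more nuclei than the product of their shares and 7 fewer, and at 1000 UMIs per nucleus the counts were 37 and 8. Pairs of other genes were not counted, so whether these counts are particular to the 10 genes cannot be said. Vsig4 and Marco were found together in 274 nuclei, 1.65 times the product, so that 54.4% of Vsig4 nuclei had Marco and 17.4% of the rest did. Timd4 went with Vsig4 (1.54 times) and with Marco (1.51 times). Before thinning, as for the ratios just given, Cd209f went with Clec10a and with Cd163 (1.59 times each). It also met Marco in 187 nuclei and Vsig4 in 216. In thinned nuclei, Cd209f stood at 1.40 times the product with Marco and 1.35 times with Vsig4. In the trimmed set before thinning (768 nuclei), the ties were smaller for Vsig4 with Marco (1.28), Timd4 with Vsig4 (1.23) and Timd4 with Marco (1.17). Cd209f stood there at 1.51 with Clec10a, 1.42 with Cd163, 1.39 with Marco and 1.23 with Vsig4.

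Mrc1 showed almost no tie to Vsig4 or Marco once depth was set equal, at 0.99 and 1.06 times the product. Clec10a and F13a1 met them less often than the product. Clec10a and Vsig4 met in 21 of the 988 thinned nuclei, 0.43 times the product, and F13a1 and Marco in 48, or 0.53 times. Clec10a with Marco (0.63), F13a1 with Vsig4 (0.78), Clec10a with Timd4 (0.78) and F13a1 with Timd4 (0.82) were likewise below the product. The 692 thinned nuclei of the trimmed set gave 0.53 for Clec10a with Vsig4, 0.84 with Marco and 0.93 with Timd4, and 0.53 for F13a1 with Marco, 0.76 with Vsig4 and 0.77 with Timd4. There 35 pairs lay above the product and 10 below. These ratios describe nuclei of 1 library and carry no test. Outside HWAT, Vsig4 and Marco met in 12 NWAT nuclei (of 57 with Vsig4 and 32 with Marco), in 6 MWAT nuclei (of 26 and 14) and in none of SWAT or EWAT.

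**Figure D3:**
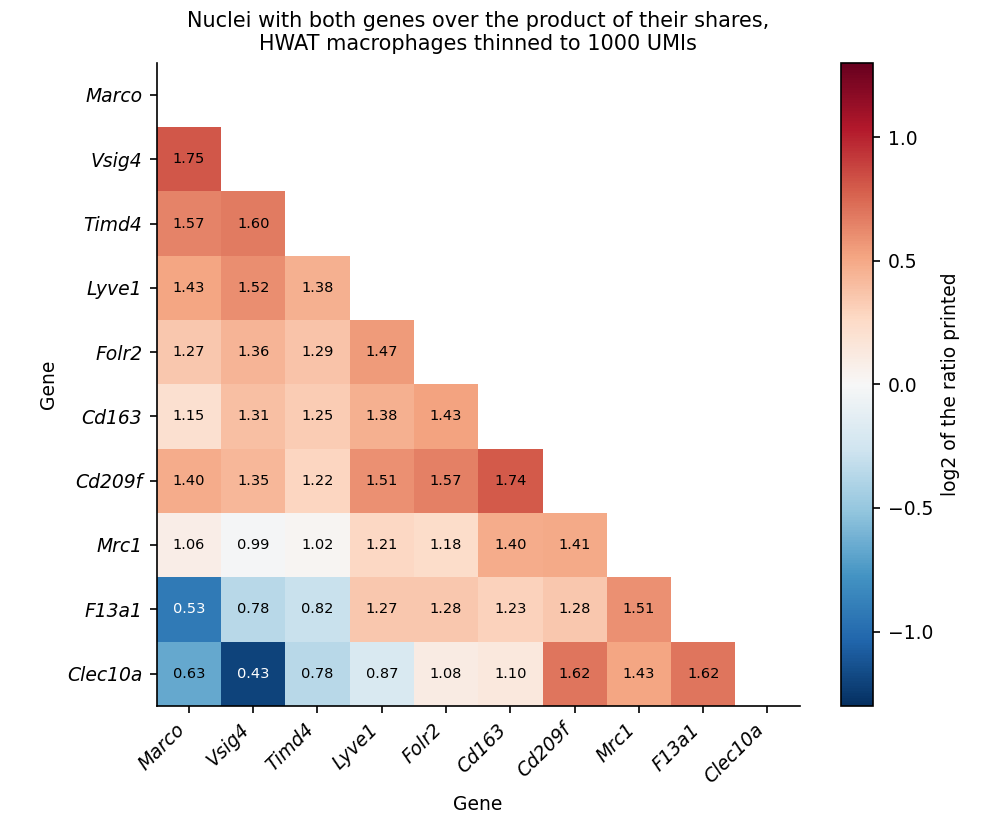
Nuclei with both genes of a pair, divided by the number the product of their shares gives, in 988 HWAT macrophage nuclei thinned to 1000 UMIs (colour, log2 of the printed ratio). Red pairs share more nuclei than the product and blue pairs fewer. Vsig4 and Marco stand at 1.75, and the blue field is the meeting of Clec10a and F13a1 with Marco, Vsig4 and Timd4, with Clec10a and Lyve1 and, faintly, Mrc1 and Vsig4.

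The remaining 6 genes were then compared between the types, with nuclei of both kinds set aside. Only HWAT (220 nuclei with Vsig4 or Marco only, 237 with Cd209f or Mrc1 only) and NWAT (23 and 880) had 20 or more nuclei of each, so these values carry no test. In HWAT, Timd4 had 959 CPM in Vsig4/Marco nuclei and 305 CPM in Cd209f/Mrc1 nuclei, a 3.14-fold difference (2.55–3.88). Lyve1 had 1090.3 and 767 CPM in the same order (1.42-fold, 1.23–1.65). F13a1 was lower in the Vsig4/Marco nuclei, with 559 against 3417 CPM (a ratio of 0.163, 0.141–0.188), and so was Clec10a, with 58.5 against 472 CPM (0.124, 0.0775–0.190).

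Cd163 had 309.8 CPM in Vsig4/Marco nuclei and 603 CPM in Cd209f/Mrc1 nuclei (0.514, 0.411–0.640), and Folr2 had 717 and 843 CPM (0.851, 0.725–0.998). Thus 1 of the 6 was at least 2-fold higher and 2 at least 2-fold lower, where 6.79% and 6.35% of 6318 genes were. The trimmed set left 185 and 94 nuclei, and the ratios were 2.29 for Timd4, 1.47 for Lyve1, 0.975 for Folr2, 0.730 for Cd163, 0.178 for F13a1 and 0.129 for Clec10a. With macrophage nuclei called one by one, 3 of the 6 were at least 2-fold lower, Cd163 (log2 -1.13) being the third. In NWAT, Timd4 again stood higher in the Vsig4/Marco nuclei, with 609 against 142 CPM (4.29-fold, 2.94–6.08). F13a1 had 828 against 4434 CPM there, Clec10a 338 against 1012 CPM, Cd163 219.8 against 792 CPM and Folr2 338 against 1461 CPM, and Lyve1 did not differ beyond counting error (626 against 534 CPM). There 1 of 6 was at least 2-fold higher and 4 lower, where 17.5% and 8.77% of 5278 genes were. In both depots the Vsig4/Marco nuclei were picked for having no Cd209f or Mrc1 UMI. Low values of genes that go with Cd209f or Mrc1 can follow from that choice. With nuclei of both kinds counted as Vsig4/Marco nuclei, Cd163 in HWAT stood at 0.934 (0.805–1.09), not different beyond counting error. Clec10a in HWAT then stood at 0.269, F13a1 at 0.261 and Folr2 at 1.19.

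Lists of other macrophage genes were then summed in the exclusive types. The 14 genes of a list for serous-cavity macrophages gave 3447 summed CPM in the HWAT Vsig4/Marco nuclei against 495 in Cd209f/Mrc1 nuclei. A ratio needed 20 UMIs over both types, which a gene high in one type can reach through that type alone, so no count of these genes is given. Prg4, which encodes the lubricant proteoglycan lubricin, had 1117 against 109 CPM, Icam2, an adhesion molecule, 893 against 68.1 CPM, and Alox15, a lipoxygenase, 234 against 30.3 CPM. F10, coagulation factor X, gave 70.7 against 7.57 CPM. Gata6 itself gave 13 UMIs in the Vsig4/Marco nuclei and 2 in the Cd209f/Mrc1 nuclei. In NWAT the list gave 7219 against 148.5 summed CPM, with Prg4 at 2570 against 19.7 CPM.

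The serous transcripts were uneven among the Vsig4/Marco nuclei. Of the 220 in HWAT, 148 lay in sub-cluster 1, where the list summed to 1950.3 CPM, 33 in sub-cluster 5 (273 CPM) and 30 in sub-cluster 7 (11321 CPM), and those 30 nuclei gave 59.2% of the list's UMIs. Of the 23 in NWAT, 13 lay in sub-cluster 7 (10317 CPM) and gave 85.5% of them, and 5 in sub-cluster 1 (3352 CPM). Of the 237 Cd209f/Mrc1 nuclei of HWAT, 143 lay in sub-cluster 5 (112 CPM) and 47 in sub-cluster 1 (798.7 CPM). Only 3 lay in sub-cluster 7 (9746 CPM), and they gave 48.0% of the list's UMIs in that type. Of the 880 in NWAT, 2 lay in sub-cluster 7 (10521 CPM) and gave 33.7%. Within sub-cluster 7 the list was thus high in both types, with few Cd209f/Mrc1 nuclei to judge by. In the trimmed set the list stood at 3786 CPM in Vsig4/Marco nuclei against 907 CPM in Cd209f/Mrc1 nuclei of HWAT.

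Genes of antigen presentation on MHC class II differed in the opposite direction. In HWAT 7 of 8 measured were at least 2-fold lower in Vsig4/Marco nuclei, where 6.35% of genes were, at 7154 summed CPM against 24971 in Cd209f/Mrc1 nuclei, with Cd74, the invariant chain, at 4098 against 14623 CPM and H2-Ab1 at 656 against 2443 CPM. In NWAT 7 of 7 were lower, where 8.77% of genes were (1183 against 22479 summed CPM). In the trimmed set 8 of 8 were lower in HWAT (4746 against 23662 summed CPM), where 5.87% of genes were. Plasma cell markers stood there at 1417 against 2256 CPM and dendritic cell markers at 27.0 against 125.9 CPM. Over all nuclei, plasma cell markers moved with the types in HWAT, at 1693 summed CPM in Vsig4/Marco nuclei and 6002 in Cd209f/Mrc1 nuclei, and B cell markers less so, at 337 and 389 CPM. Dendritic cell markers, whose cells are rich in MHC class II, summed to 56.1 and 237.2 CPM in HWAT and to 33.8 and 151.5 CPM in NWAT, and B cell markers in NWAT to 101.4 and 426 CPM. Their part in the MHC class II difference was not tested.

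The counts of the other lists in HWAT stand against the 6.79% of genes that were at least 2-fold higher and the 6.35% that were lower, and a count such as 1 of 10 is near that share. Here too a gene can reach 20 UMIs through 1 type alone, so these counts are a description only. Of 14 genes of vessel-associated macrophages, 2 were at least 2-fold higher in HWAT Vsig4/Marco nuclei and 6 lower. The 2 were Fcna, which encodes ficolin A (4859 against 2042 CPM), and Ltc4s, leukotriene C4 synthase (2978 against 1302 CPM), and Mgl2, a lectin close to Clec10a, was among the lower ones (29.3 against 368 CPM). Of 12 measured lectins and scavenger receptors, 2 were higher, Cd5l, a secreted scavenger protein (429 against 37.9 CPM), and Msr1, scavenger receptor A (505 against 167 CPM), and 6 were lower. Cd209g, the paralog next to Cd209f, had 14.6 against 692 CPM, and Cd209b 19.5 against 197 CPM. The Vsig4/Marco nuclei here were picked for having no Cd209f UMI, so low values of genes that go with Cd209f can follow from that choice. With nuclei of both kinds counted as Vsig4/Marco nuclei, Cd209g had 514 against 693 CPM in HWAT and Cd209b 41.1 against 197 CPM. Each was lower in 3 of the 5 depots. Among 10 measured genes of lipid-associated macrophages, Cd9 alone was higher (298 against 73.2 CPM) and none lower. For efferocytosis, the uptake of dying cells, 2 of 10 were higher, the integrin genes Itgam and Itgb2. Fn1, fibronectin, was higher (1717 against 548 CPM) and Ccr2, the monocyte chemokine receptor, lower (58.5 against 227 CPM) among 4 monocyte genes. Of 15 transcription factors, Klf2 and Cebpb were higher and Mef2c and Cebpa lower. The counts higher and lower in the trimmed set were 2 and 5 of 14 for the vessel-associated list, 1 and 4 of 9 for lectins and scavengers, and 2 and 0 of 14 for transcription factors. Over all 5107 genes measured in that set, 7.66% were at least 2-fold higher and 5.87% lower.

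A test of the contrast needs several libraries, and it could be made by counting nuclei with both kinds as Vsig4/Marco nuclei. This gave 625 against 237 nuclei in HWAT, 30 against 789 in SWAT, 42 against 1133 in EWAT, 34 against 311 in MWAT and 77 against 880 in NWAT. UMIs were summed per library and type and fitted with the library as a block, so a p-value measures how steady the contrast was over the 5 depots and not over mice. Most of the Vsig4/Marco nuclei so defined carry Cd209f or Mrc1 too, and those of SWAT and EWAT rest on 30 and 42 nuclei, whose Vsig4 UMIs number 35 and 51. Vsig4/Marco nuclei were the deeper in each depot, with medians of 1360 to 2564 UMIs against 1039 to 2061.5 UMIs in Cd209f/Mrc1 nuclei. Of 6233 genes, edgeR's quasi-likelihood test called 82 higher and 53 lower (adjusted p under 0.05). For the trimmed set it called 53 higher and 32 lower of 5226.

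Of the 6 genes, 2 rose in Vsig4/Marco nuclei, where 1.32% of genes were called higher, and edgeR called none lower, where 0.85% were. At an unadjusted p under 0.05 none of the 6 was lower either, and DESeq2 called none lower. Timd4 had 1012 CPM in Vsig4/Marco nuclei against 306 in Cd209f/Mrc1 nuclei of HWAT, 329.7 against 117 in SWAT, 255 against 66.0 in EWAT, 694 against 159.9 in MWAT and 566 against 143 in NWAT. The ratio lay between 2.81 and 4.34 and was clear of 1 in all 5 depots. The fitted log2 difference was 1.86 (SE 0.30, edgeR adjusted p = 2.97e-06), and the call held when any 1 library was left out. In the trimmed set the difference was 1.76 for Timd4 (edgeR adjusted p = 6.19e-06) and 0.86 for Lyve1 (0.00597).

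Lyve1 had 1431 CPM in Vsig4/Marco nuclei against 769 in Cd209f/Mrc1 nuclei of HWAT, 385 against 283 in SWAT, 598 against 297 in EWAT, 631 against 466 in MWAT and 1201 against 537 in NWAT. It was higher in 5 of 5 depots, with a log2 difference of 0.83 (SE 0.22, edgeR adjusted p = 0.0121), although the counting interval of the ratio held 1 in SWAT and MWAT. Without NWAT the difference was 0.72 and the call was lost (edgeR adjusted p = 0.194). Fitted without the library block, neither Timd4 (edgeR adjusted p = 0.0930) nor Lyve1 (0.489) passed.

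The other 4 genes did not pass. Cd163 had a log2 difference of -0.14 (SE 0.23, edgeR adjusted p = 0.925), Clec10a of -0.52 (SE 0.32, 0.561), F13a1 of -0.51 (SE 0.28, 0.495) and Folr2 of 0.11 (SE 0.22, 0.945). Their ratios pointed both ways over the depots. F13a1 stood at 894 CPM in Vsig4/Marco nuclei against 3426 in Cd209f/Mrc1 nuclei of HWAT, but at 4943 against 3290 CPM in EWAT. Clec10a likewise had 127 against 473 CPM in HWAT and 942 against 533 CPM in EWAT.

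**Figure D4:**
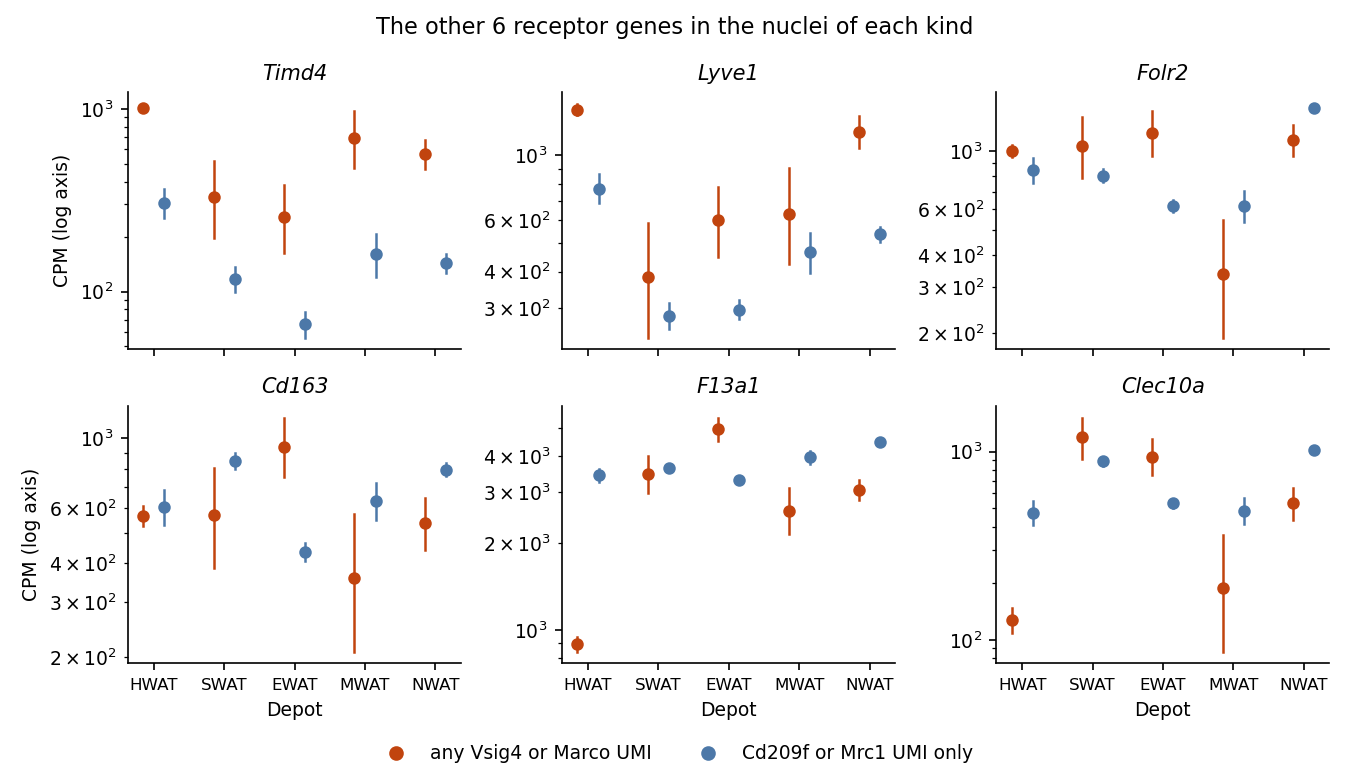
Level (CPM, log axis) of the 6 genes that did not define the types, in nuclei with any Vsig4 or Marco UMI (left point of each pair) and in nuclei with Cd209f or Mrc1 only (right point), by depot, with 95% intervals of counting error. Timd4 is higher in the Vsig4 or Marco nuclei of all 5 depots, by 2.81-fold to 4.34-fold. F13a1 and Clec10a are lower in them in HWAT, MWAT and NWAT and, in EWAT, higher.

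Over all genes of this fit, Cd5l rose most (log2 4.37, SE 0.71, edgeR adjusted p = 2.97e-06), with 433 against 38.0 CPM in HWAT and 332 against 6.09 CPM in NWAT. Next came Ankrd33b (2.43), Smpdl3a (1.92), Timd4, Arsg (1.79), Calml4 (1.66), Ptprm (1.63), Bst1 (1.49), Fam20a (1.45) and Cryl1 (1.44). Smpdl3a encodes a phosphodiesterase of the acid sphingomyelinase family, and Arsg a lysosomal sulfatase. Ear2, an eosinophil-type ribonuclease, fell most (log2 -3.51, SE 0.62, edgeR adjusted p = 2.89e-05), followed by Cd226 (-2.34), Acvrl1 (-2.31), Slamf7 (-2.30), Grk3 (-2.25), Ccr2 (-2.23), Pstpip1 (-2.21), Clec4b1 (-2.18), Olfm1 (-2.12) and Skint3 (-2.08). Of these 20, 7 passed with any 1 library left out: Smpdl3a, Timd4, Ptprm, Cryl1, Ear2, Ccr2 and Clec4b1. Without HWAT, 6 others were no longer called or had too few counts to be tested, Cd5l, Ankrd33b, Cd226, Acvrl1, Slamf7 and Grk3. The remaining 7 were lost without HWAT, without NWAT and for Olfm1 and Skint3 also without other libraries. In the trimmed set 12 of the 20 passed, Slamf7 did not (edgeR adjusted p = 0.0872), and 7 had too few counts to be tested. Ear2 and Cd226 were also among the leading genes of sub-cluster 4 (547 nuclei, Mrc1 at 521 CPM, Cd209f at 33.1 CPM). It gave 17 of 237 Cd209f/Mrc1 and 2 of 625 Vsig4/Marco nuclei in HWAT, and 131 of 1133 and 0 of 42 in EWAT. Sub-cluster 3 gave another 131 Cd209f/Mrc1 and 2 Vsig4/Marco nuclei in EWAT. The part of these sub-clusters in the falls was not tested.

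The MHC class II genes fell together: 7 of 7 tested were called lower in Vsig4/Marco nuclei, where 0.85% of the 6233 genes were. Their median log2 difference was -1.67, where the median of all genes was -0.0062. H2-Eb1 had a difference of -1.89 (SE 0.36, edgeR adjusted p = 1.02e-04), Ciita, the activator of these genes, of -1.96, H2-Ab1 of -1.79 and H2-Aa of -1.67. All 7 stayed below the threshold without any 1 library, HWAT included, where the median was -1.52, and 7 passed in the trimmed set (median -1.85). Fitted without the library block, 3 of the 7 were called. The counts of the other lists stand against 1.32% of genes called higher and 0.85% called lower. Of the vessel-associated list 2 of 14 rose, Fcna (1.22) and Ltc4s (1.06). Among lectins and scavengers 2 of 11 rose, Cd5l and Msr1 (1.37). None of them was called lower, with Cd209g at -0.43 (edgeR adjusted p = 0.676) and Cd209b at -0.76 (0.379). Single genes rose in the lists for lipid-associated macrophages (Cd9, 1.51, 1 of 12), efferocytosis (Itgb2, 0.98, 1 of 11) and transcription factors (Klf2, 1.001, 1 of 13), and Ccr2 fell among 3 monocyte genes. These single calls describe the genes and not their lists. Fn1, Itgam, Cebpb, Mef2c and Cebpa, named above from the exclusive HWAT nuclei, did not pass (edgeR adjusted p of 0.106 to 0.592). Only Aspa of the serous list had enough counts for the test, and it rose (1.22). The call was lost for Cd9 without SWAT or NWAT, for Klf2 without HWAT or NWAT, and for Itgb2 and Aspa without HWAT, MWAT or NWAT. Itgb2 (edgeR adjusted p = 0.0524) and Aspa (0.0513) also missed the threshold in the trimmed set. The 11 macrophage markers had a median of 0.28, the 7 adipocyte markers of -0.45 and the 3 dendritic markers tested of -1.03.

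Sub-clusters of the macrophages, made without the 10 genes, show where the transcripts sat, as a description. Sub-cluster 1 held 665 nuclei, 586 of them from HWAT (48.8% of HWAT macrophages), and was led by Cxcl13, a B cell chemokine. It had the highest Vsig4 (1096 CPM), Marco (1192 CPM), Timd4 (1039 CPM) and Lyve1 (1497 CPM) of the 14 sub-clusters, and also held Cd209f (889 CPM) and Mrc1 (433 CPM). Of the 625 HWAT nuclei with Vsig4 or Marco, 481 lay there, and 69.2% of these had Cd209f or Mrc1 too.

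Sub-cluster 7 was smaller, with 128 nuclei, 97 from HWAT and 27 from NWAT. It was led by Slpi, Alox15, Ltbp1 and Prg4, the serous list summed to 12037 CPM, and Gata6 reached 104 CPM, against 5.81 CPM in sub-cluster 1. Marco (456 CPM), Timd4 (527 CPM) and Vsig4 (288 CPM) were present, while Mrc1 (48.5 CPM), Cd209f (12.9 CPM), Lyve1 (110.0 CPM) and Folr2 (61.5 CPM) were low. In it 14.3% of the 35 HWAT nuclei with Vsig4 or Marco had Cd209f or Mrc1. Of the HWAT nuclei with Vsig4 or Marco, most in sub-cluster 1 thus had Cd209f or Mrc1, and most in sub-cluster 7 had neither. Clec10a did not differ the same way in both depots. It had 101 CPM in sub-cluster 1 and 58.7 CPM in sub-cluster 7 of HWAT, and 104 and 304 CPM in NWAT.

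Sub-cluster 0, with 1778 nuclei mostly from SWAT (662) and EWAT (883), had Mrc1 at 2044 CPM, F13a1 at 4773 CPM and Cd209f at 1685 CPM, with Vsig4 at 28.7 CPM and Marco at 0.355 CPM. It held 27 of the 30 SWAT and 36 of the 42 EWAT nuclei with Vsig4 or Marco, and 3 of the 34 in MWAT. Sub-cluster 2, with 627 of its 661 nuclei from NWAT, had the highest Cd209f (2856 CPM), Mrc1 (2094 CPM), F13a1 (5538 CPM) and Clec10a (1288 CPM), and was led by skeletal muscle transcripts beside Cd209b and Cd209d. In MWAT 18 of 34 nuclei with Vsig4 or Marco lay in sub-cluster 1, and in NWAT 29 of 77, with 25 in sub-cluster 2 and 16 in sub-cluster 7. Sub-cluster 3, led by Gpnmb, Mmp12 and Spp1, was low in most of the 10 genes, with Mrc1 at 365 CPM and Vsig4 at 2.36 CPM. Sub-cluster 5 was led by immunoglobulin transcripts, with 408 of its 504 nuclei from HWAT, and had Vsig4 at 173 CPM and Marco at 161 CPM.

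The same sub-cluster differed between depots. In sub-cluster 1, Vsig4 had 1125 CPM in HWAT, 706 in MWAT and 972 in NWAT, whereas Cd209f had 981 CPM in HWAT, 118 in MWAT and 217 in NWAT. F13a1 in it had 942 CPM in HWAT, 1138 in MWAT and 2652 in NWAT. MWAT and NWAT gave 39 nuclei each.

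**Figure D5:**
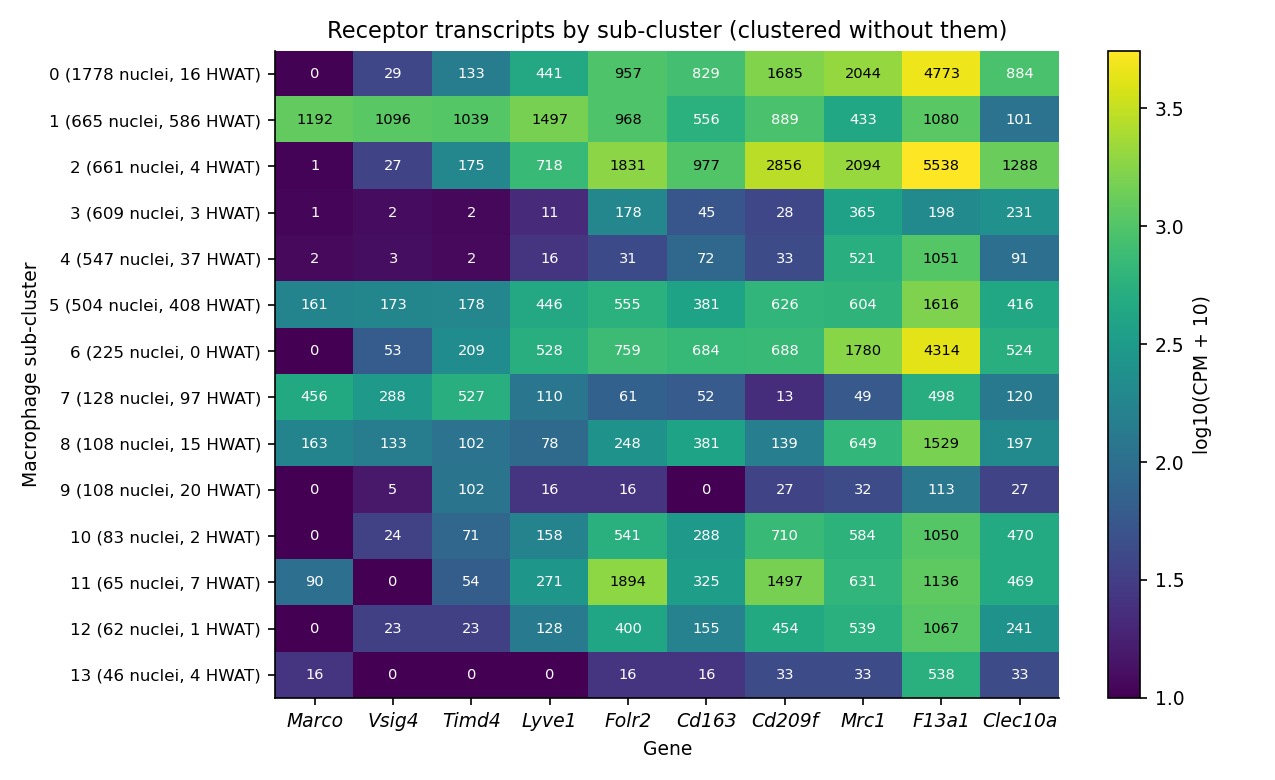
Level of the 10 genes (CPM, printed in each cell, colour on a log10 scale after adding 10) in the 14 macrophage sub-clusters, which were made without these genes. Sub-cluster 1 holds the highest Marco, Vsig4, Timd4 and Lyve1 together with Cd209f at 889 CPM, and sub-cluster 7 holds Marco, Vsig4 and Timd4 with Cd209f at 12.9 CPM.

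The genes most like the 4 type-defining ones were ranked by Pearson correlation of log2(CPM + 10) over 15 sums, each a sub-cluster within 1 library with at least 50 nuclei. These points share libraries and sub-clusters, so the values are a description. For Vsig4 they were Nupr1 (0.93), Cxcl13 (0.89), Edil3 (0.88), Klf12 (0.87) and Cacna1a (0.87). For Marco they were Cxcl13 (0.93), Eif1 (0.92), Il2rg (0.91), Emp3 (0.91) and Smpdl3a (0.90). For Cd209f they were Cd209g (0.99), Fxyd2 (0.97), Cbr2 (0.96), Fcgrt (0.96) and Folr2 (0.95), and for Mrc1 Ap1b1 (0.96), Nfatc2 (0.95), Rbpj (0.94), Dab2 (0.91) and Adam19 (0.91). Between Vsig4 and Marco the correlation was 0.77, between Vsig4 and Cd209f 0.26, between Marco and Mrc1 -0.54, and between Timd4 and Vsig4 0.80.

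Nuclei often carried several of the 10 genes. The median number with at least 1 UMI was 4 in HWAT, 4 in SWAT, 3 in EWAT, 3 in MWAT and 5 in NWAT. In HWAT 100 nuclei had 8 or more of them and 4 had all 10, while in NWAT 97 had 8 or more and none had 10. None of the 10 was seen in 11.8% of HWAT macrophages, against 11.3% in SWAT, 14.4% in EWAT, 13.8% in MWAT and 6.18% in NWAT.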

How the data were processed

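The files hold UMI counts per gene and nucleus, deposited by the authors with no normalization. Per the file headers they come from Cell Ranger 6.0.1, and mm10 is the build in the submitters' processing notes. The gene annotation is not given in the sources used here. Libraries were loaded with at least 8000 nuclei and sequenced to at least 20000 reads per nucleus, per the labels. Every barcode in the files had at least 500 UMIs.

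Nuclei with at least 200 genes and at most 10% mitochondrial UMIs were kept (149 of 76040 removed), and the nuclei most like simulated doublets were removed at 0.8% per 1000 nuclei of a library. The 66249 nuclei left were clustered on 2000 variable genes and 40 components (20 neighbours, Leiden resolution 1, sub-clusters at 0.5), with the 10 genes left out, by leidenalg 0.10.2 in Python 3.11.15. A cluster was named from marker lists where the mean log2 fold was at least 1 and led the next list by 0.5. Macrophage UMIs were summed per library and scaled to CPM, with exact Poisson intervals, and shares have exact Clopper-Pearson intervals, at 95%, for counting error only. A value of 0 is limited by 3 counts. A fold needed 20 counts over the groups compared.

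The type contrast was planned on nuclei with one kind of UMI only. Since 2 libraries had 20 nuclei of each type, under the 3 set for a test, those are values only, and the contrast that counts nuclei with both kinds as Vsig4/Marco nuclei was tested over 5 libraries with edgeR 4.0.16 (R 4.3.3; TMM, filterByExpr, quasi-likelihood, library as block, Benjamini-Hochberg at 0.05), leaving the 4 typing genes out of the test and of the totals. Standard errors were computed from the fold and its p-value. Checked on simulated data made from these samples (5883 genes), that fit recovered 90.3% of 4-fold changes and 20% of 2-fold changes, with 3 false calls. These shares are over the 93 and 90 changed genes that passed the count filter. The simulation gave every gene the same dispersion and every library the same gene proportions. It therefore does not cover the real spread between depots.

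Named genes are the 10 members, the 10 highest and 10 lowest log2 folds among called genes with 1 sign in every library, up to 4 members of each list and the 5 genes most like each typing gene. The genes and lists were chosen with earlier results of these data known. Clec7a, on the list of lectins, is not analysed here. Gene positions are from GENCODE vM21 (GRCm38). Alternatives included DESeq2 1.42.0, other filters, thinning to 1000 UMIs and leaving out each library.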

Additional observations from a re-analysis of the deposited data

Results flagged for a closer look

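For 4 genes the ratio of Vsig4/Marco nuclei over Cd209f/Mrc1 nuclei lay above 1 in some depots and below 1 in others, each beyond counting error, where nuclei with both kinds counted as Vsig4/Marco nuclei. The differences between depots were not tested, since each depot is 1 library. Cd163 stood at 2.17 in EWAT and at 0.670 in SWAT, 0.567 in MWAT and 0.674 in NWAT. Clec10a stood at 1.34 in SWAT and 1.77 in EWAT, and at 0.269 in HWAT, 0.390 in MWAT and 0.522 in NWAT. F13a1 stood at 1.503 in EWAT, and at 0.261 in HWAT, 0.653 in MWAT and 0.687 in NWAT. Folr2 stood at 1.19 in HWAT and 1.90 in EWAT, and at 0.548 in MWAT and 0.751 in NWAT. The nuclei with Vsig4 or Marco numbered 625 in HWAT, 30 in SWAT, 42 in EWAT, 34 in MWAT and 77 in NWAT, and in SWAT and EWAT nearly all of them lay in sub-cluster 0, while in HWAT most lay in sub-cluster 1.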

How the results depend on the processing

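The share of HWAT macrophages with Vsig4 or Marco was 61.2% at Leiden resolution 2, 45.2% after thinning, and 69.3% without the sub-clusters led by genes of another immune class, an alternative chosen after seeing the data. Without doublet removal, the MWAT share was 9.83% and its co-detection with Cd209f or Mrc1 52.3%. Thinning gave shares of 1.62% in SWAT and 4.60% in NWAT, and co-detection of 53.5% in HWAT, 100% of 30 nuclei in EWAT and 58.3% in NWAT. The counts of members at least 2-fold higher (4) and lower (3) in HWAT were the same under each alternative run on levels.

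The 5-library contrast called 82 genes higher and 53 lower. DESeq2's Wald test called 42 and 23, no filter on low counts (20112 genes) 138 and 147, no replicate block 15 and 8, and leaving out the sub-clusters led by genes of another immune class 53 and 32. Leaving out 1 library gave 18 (without NWAT) to 128 (without EWAT) higher and 16 (without HWAT) to 128 (without EWAT) lower. The library is the block because each library gives both types. Without it Timd4 stood at 1.92 (edgeR adjusted p = 0.0930) and Lyve1 at 0.90 (0.489), so neither passed, and 3 of 7 MHC class II genes fell. Under every other alternative 7 of the MHC class II genes fell. F13a1 passed with no filter, at -0.66 (edgeR adjusted p = 0.0403). Cd163 changed sign to 0.0099 without those sub-clusters. Folr2, which passed nowhere, changed sign to -0.022 with no filter, to -0.10 with types from thinned nuclei and to -0.11 without EWAT, and the single libraries left out gave -0.11 to 0.25. The cause was not tested. A minimum of 50 nuclei per type left 2 libraries and was not run. The exclusive HWAT ratio of Folr2 turned from below to above 1 when nuclei with both kinds were counted as Vsig4/Marco nuclei. Marco rested on 0 UMIs in SWAT and 5 in EWAT, among 1828476 and 3235619 macrophage UMIs, so its folds there are imprecise. MWAT gave 37 among 604528 UMIs.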
